A study of Vitis vinifera with 54 samples.

Results

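Enlarging Chardonnay berries (Vitis vinifera L.) from the zone labelled CC were compared with enlarging berries of the 5 other ecological zones of the series. The libraries were chosen by their labels, stage E and zone CC against stage E and the zones HJZ, ZHYS, XG, XLS and HSB, which gives 3 CC libraries and 15 libraries of the other zones out of 54 in the series. All were made from mRNA of fruit flesh cut free of skin and seeds, harvested in Ningxia, China, at 40 days on the DAP scale of the study. Each library was a biological replicate of 15 pooled berries, and the same zones were sampled again at color transition (V, 80 DAP) and maturity (M, 120 DAP). The labels separate the libraries by zone and stage alone, so climate, soil, vines, management and sampling day cannot be told apart from the zone. The replicates measure the spread between pools of berries within a zone. With the zone as the unit, CC is 1 of 6, and the smallest p such a comparison could give is 0.167.

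The enlarging berry is green, firm and acidic. Its flesh still carries out some photosynthesis. The berry makes tannin precursors through the flavonoid pathway, and the paper places tannins mainly in skins and seeds. Sugar storage, softening and abscisic acid signalling belong mostly to the later, ripening phase. Phenylalanine feeds a shared entry pathway, from which chalcone synthase leads to flavonoids and stilbene synthase to resveratrol, a defence compound that grape makes after infection, wounding or ultraviolet light.

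Expression is given as TPM, the abundance of a transcript scaled to its length and to a fixed library total, and each library was then divided by a factor that aligned the bulk of genes (rescaled TPM). The factors were 1.10 to 1.21 in CC, 0.64 to 0.73 in HJZ, 0.74 to 0.83 in ZHYS, 0.88 to 1.04 in XG, 1.12 to 1.24 in XLS and 1.43 to 1.45 in HSB. They moved with the share of TPM in the 100 most abundant genes, which was 40.5 to 45.3% in CC, 59.5 to 63.8% in HJZ and 27.6 to 30.3% in HSB. TPM carries no sequencing depth, so the precision of a value is known only from its replicates. All 18 enlargement libraries were closest to their own group, and the lowest R2 between CC replicates was 0.991. Of 6 genes known for seed tissue or for the tannins of young seeds, 1 was higher in CC, and their summed level was 1397 to 1644 in CC and 570 to 2384 rescaled TPM in the other zones. The called one was LAR2, and most of the sum was MADS5, at 949 to 1165 in CC and 488 to 1659 in the other zones. Of 6 genes of skin colour none was called, and their sum was 0.4 to 2.0 in CC and 0.3 to 2.7 in the other zones.

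The contrast set CC against the mean of the 5 other zones on log2(rescaled TPM + 1), a scale that understates the change of weakly expressed genes. A gene was called where the limma adjusted p (Benjamini-Hochberg) was below 0.05 and the absolute log2 difference above 1. Of 24046 genes tested, 443 (1.84%) were higher and 657 (2.73%) lower in CC, 1100 (4.57%) together. The median difference over all genes was -0.02. The median was 1.24 among the genes higher in CC and -1.32 among the genes lower in CC, and 20 higher and 86 lower genes passed a difference of 2. On TPM as deposited, without the rescaling, the split turned to 792 higher and 450 lower, with a median over all genes of 0.06. In a bulk sample, a lower level can mean fewer cells that express a gene or less RNA per cell, and these cannot be told apart.

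In 240 of the higher genes (0.998% of those tested) all 3 CC libraries lay above all 15 other libraries, and in 387 of the lower genes (1.61%) all 3 lay below them. Over all genes tested, called or not, 1124 (4.67%) lay above and 1362 (5.66%) below. CC had the highest of the 6 zone means in 337 (76.1%) of the higher genes and the lowest in 572 (87.1%) of the lower genes. The other end was not evenly shared. HSB had the lowest mean in 194 (43.8%) of the higher genes, and in the lower genes the highest mean was in ZHYS in 274 (41.7%) and in HSB in 261 (39.7%).

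Against single zones, CC differed from HSB in the most genes and from XLS in the fewest. Against HSB, 1321 genes (5.49%) were higher and 1964 (8.17%) lower in CC. Against HJZ, 1017 (4.23%) were higher and 924 (3.84%) lower, and against ZHYS 564 (2.35%) and 1451 (6.03%). Against XG, 544 (2.26%) were higher and 589 (2.45%) lower, and against XLS 279 (1.16%) and 637 (2.65%). These 5 comparisons share the same CC libraries. A call in the same direction against every one of the 5 zones was met by 43 higher and 86 lower genes, whereas 23 higher and 41 lower genes were called the same way against 1 zone alone. When HSB was left out of the other zones, 364 genes were higher and 647 lower, of which 303 and 497 were among the original calls. The same contrast with each other zone in the place of CC called 602 higher and 729 lower genes for HJZ, 872 and 232 for ZHYS, 175 and 247 for XG, 254 and 51 for XLS, and 1409 and 1110 for HSB.

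**Figure D1:**
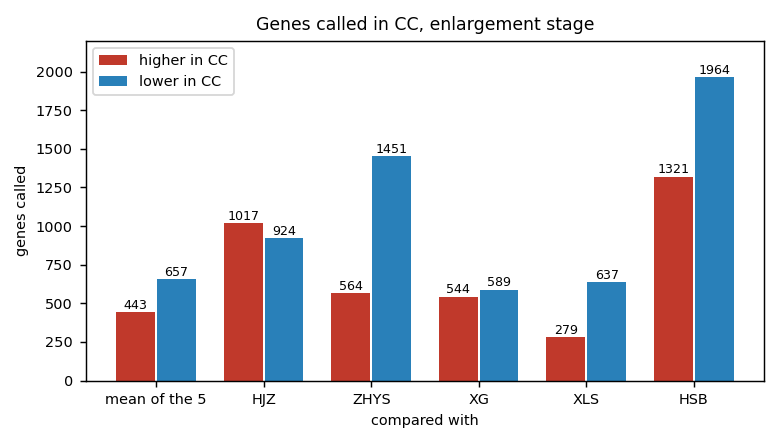
Number of genes called higher (red) or lower (blue) in enlarging CC berries, against the mean of the 5 other zones and against each zone alone (limma, adjusted p below 0.05 and absolute log2 difference above 1, n = 3 libraries a zone). The bars are tallest against HSB, with 1321 higher and 1964 lower genes, and shortest against XLS, with 279 and 637.

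Of 9 tested genes of photosynthesis, light and thiamine, 4 were higher in CC and 0 lower. Over all genes tested the shares were 1.84% higher and 2.73% lower, the background for each list count below. The 4 higher genes of this list were both thiamine genes, THI1-1 and THI1-2, the photosystem gene PSBP1 and the phytochrome gene PHYE. The 9 had a list median of 0.76 against -0.02 over all genes, and together summed to 671 to 776 in CC and 239 to 460 rescaled TPM in the other zones. Most of that sum came from THI1-1 and PSBP1, which averaged 406 and 172 in CC and 179 and 89.5 elsewhere. THI1-2, a thiamine thiazole synthase of plastids, had 76.5, 63.4 and 63.2 rescaled TPM in CC, against 4.31 to 51.4 with a median of 24.3 in the other zones. Its CC libraries lay above all others, with XLS nearest and HSB lowest, and the log2 difference was 1.76 ± 0.11 (SE; limma adjusted p = 3.9e-08). The second copy, THI1-1, was more abundant, with 437, 414 and 367 in CC and 129 to 258 in the other zones, and differed by 1.2 ± 0.11 (adjusted p = 5.8e-07). The 2 copies may share reads where their sequences are alike, so the split between them is uncertain.

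PSBP1, a subunit of the oxygen-evolving complex of photosystem II, had 189, 154 and 172 rescaled TPM in CC and 26.0 to 148 with a median of 90.0 elsewhere. The groups did not overlap, but ZHYS came close and HJZ was far lower, and the difference of 1.06 ± 0.14 (limma adjusted p = 2.2e-05) fell to 0.99, below the threshold, without CC replicate 1. It was 0.77 when HJZ was left out of the other zones. PHYE, a phytochrome that senses red light, was weakly expressed, with 7.12, 6.25 and 5.45 in CC and 1.42 to 3.94 in the other zones. It was higher in CC by 1.17 ± 0.11 (adjusted p = 8.4e-07), and all 3 CC libraries lay above the 15 others. Among the uncalled members PIFI, at 35.5 in CC and 21.2 on average in the other zones, also had its CC libraries above all others. CHLH, a subunit of the magnesium chelatase of chlorophyll synthesis, averaged 10.74 in CC and 16.8 in the other zones (-0.40). PHYA, the other phytochrome gene of the list, averaged 7.22 in CC and 6.41 in the other zones (0.17, adjusted p = 0.20).

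GCAT, a catalase that breaks down hydrogen peroxide, was higher in CC. It had 1588, 1527 and 1508 rescaled TPM in CC, against 484 to 790 with a median of 657 in the other zones. The groups did not overlap, the gene was called against each of the 5 zones, and the difference was 1.25 ± 0.06 (limma adjusted p = 4.4e-09). The other 8 antioxidant genes were not called, and the list median was 0.15. The 9 genes together summed to 2797 to 2943 in CC and 1439 to 2243 in the other zones. Most of that gap was GCAT itself, which averaged 1541 in CC and 652.8 elsewhere.

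**Figure D2:**
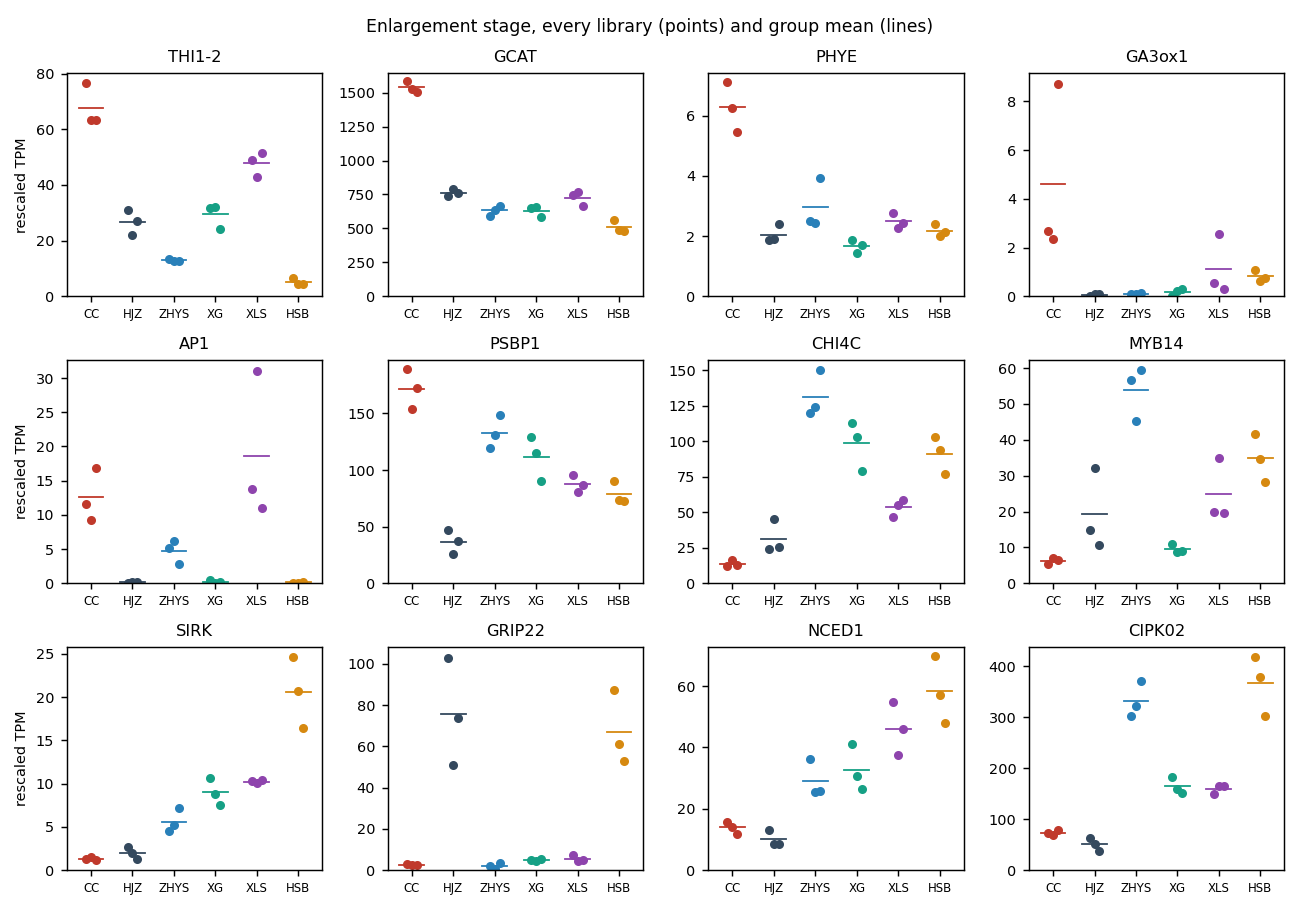
Rescaled TPM of 12 genes in every enlargement library (points, n = 3 a zone) with the zone mean (line), CC at the left, linear axes from 0. GCAT is at 1508 to 1588 in CC and at most 790 elsewhere, CHI4C is at 11.8 to 16.6 in CC and at least 23.8 elsewhere, whereas in AP1, GRIP22, NCED1 and CIPK02 at least 1 other zone reached the CC level.

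In the list of flavonoid enzymes, 4 of 21 tested genes were higher in CC and 0 lower, with a list median of 0.35. The list includes isoflavone-reductase-like (IFRL) genes, whose part in flavonoid synthesis was not tested. CHS1 (LOC100263443), a chalcone synthase that makes the first flavonoid, had 18.7, 23.4 and 25.3 rescaled TPM in CC and 1.45 to 70.2 with a median of 8.29 elsewhere. DFR, the dihydroflavonol reductase shared by anthocyanin and tannin synthesis, had 172, 212 and 222 in CC and 26.6 to 354 with a median of 91.1 elsewhere. LAR2, a leucoanthocyanidin reductase that makes a catechin-type tannin unit, had 330, 334 and 331 in CC and 12 to 591 with a median of 224 elsewhere. In all 3 genes the groups overlapped, HJZ had a higher mean than CC and HSB lay lowest. LAR2 is also one of the seed-related genes above, whose part in its difference was not tested.

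The differences were 1.14 ± 0.14 for CHS1, 1.09 ± 0.14 for DFR and 1.18 ± 0.14 for LAR2 (limma adjusted p = 1.5e-05, 1.4e-05 and 1.1e-05). Without HSB they were 0.65, 0.70 and 0.34, all below the threshold. IFRL6, an isoflavone-reductase-like gene, had 157, 159 and 165 in CC and 28.2 to 149 elsewhere, the only one of the 4 whose groups did not overlap, and its difference of 1.06 ± 0.13 was 0.77 without HSB. CHS3, a chalcone synthase gene more abundant than CHS1, averaged 222.9 in CC and 193.5 elsewhere and was not called (0.48, limma adjusted p = 0.012). LDOX, the leucoanthocyanidin dioxygenase, averaged 119 in CC and 73.8 elsewhere and was not called (0.74, adjusted p = 1e-05). UFGT, which glycosylates anthocyanidins, averaged 0.077 in CC and 0.088 elsewhere. Of 14 flavonoid regulators 0 were called with limma, since none passed the fold threshold. By limma's unadjusted p below 0.05 alone, 6 were higher and 2 lower (42.9% and 14.3%, against 22.0% and 28.4% over all genes). On TPM as deposited 2 were called higher. MYBC2-L1, an R2R3-MYB factor, averaged 48.2 in CC and 24.8 elsewhere (0.99, limma adjusted p = 1.7e-06). MYC1, a basic helix-loop-helix factor, averaged 32.1 in CC and 18.5 elsewhere (0.86, limma adjusted p = 9.4e-08), and both had their CC libraries above all others. The tannin regulator MYBPA1, the most abundant of them, averaged 89.8 in CC and 76.4 in the other zones.

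Of 7 genes of phenylpropanoid entry and stilbenes, 3 were lower in CC and 0 higher, namely MYB14, the stilbene synthase PSV368 and PAL15 of the shared entry, with a list median of -1.64. MYB14, an R2R3-MYB factor known in grape to activate stilbene synthase genes, had 5.43, 6.99 and 6.42 rescaled TPM in CC, against 8.70 to 59.5 with a median of 28.2 in the other zones. The CC libraries lay below all others, with XG next and ZHYS highest, and the difference was -1.77 ± 0.23 (limma adjusted p = 2.3e-05). PSV368 (LOC100217471), a stilbene synthase, had 0.49, 0.53 and 0.68 in CC and 1.07 to 25.9 with a median of 4.68 elsewhere, again with no overlap (-1.95 ± 0.50, adjusted p = 0.0050). VINST1, another stilbene synthase, averaged 0.24 in CC and 6.60 elsewhere but varied too much between replicates to be called (-1.75 ± 0.69, adjusted p = 0.052).

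PAL15 (LOC100245997), a phenylalanine ammonia-lyase at the head of the pathway, had 0.69, 0.52 and 0.67 rescaled TPM in CC and 1.05 to 16.8 with a median of 3.62 elsewhere. Its groups did not overlap, yet its difference of -1.64 ± 0.51 (limma adjusted p = 0.016) lost the call when any of the 3 CC libraries was left out (adjusted p = 0.053 to 0.064). 4CL, which activates cinnamic acids for both branches, averaged 11.2 in CC and 10.49 elsewhere and was not called.

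PSV368 and VINST1 stood beside the longest stretch of neighbouring genes that were called together. In the gene order of the RefSeq assembly ASM3070453v1, 85 of 22126 neighbouring pairs of tested protein-coding genes were called the same way and 24 in opposite ways. Runs of 3 or more neighbours called alike numbered 12, of which 4 were higher and 8 lower, with 46 genes. The longest held 13 genes, from LOC100245181 to LOC100853406, all lower in CC and all without a name in the table. Their means were 0.09 to 0.89 rescaled TPM in CC and 1.95 to 16.5 over the other zones, and 3 of the 13 had CC libraries below all others. Summed over the run, CC had 5.8, HJZ 80.3, ZHYS 166.5, XG 22.6, XLS 119.7 and HSB 14.7 rescaled TPM, so HSB and XG stood nearest to CC. These sums are of zone means and do not show the spread between replicates. In PSV368 beside the run, replicate 2 was far the highest in HJZ (5.74, 25.9 and 4.68) and XLS (1.53, 21.0 and 5.74). ZHYS was more even there, at 15.6, 8.84 and 15.3.

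PSV368 lay 2 protein-coding places and VINST1 15 places past the end of that run, a window chosen after its values were seen. From the start of the run to VINST1 the table listed 39 protein-coding genes, of which 28 were tested. All 28 had a negative difference, as did 13967 of all 24046 genes tested. Of the 28, 15 were called lower and 0 higher, and their median was -1.33, against -0.02 over all genes. The 13 genes of the run and PSV368 are among the 15, so these counts mostly restate how the window was chosen. Neighbouring copies of alike sequence can share reads, and how such reads were assigned is not given in the sources used here, so the values of single genes in this window are uncertain.

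**Figure D3:**
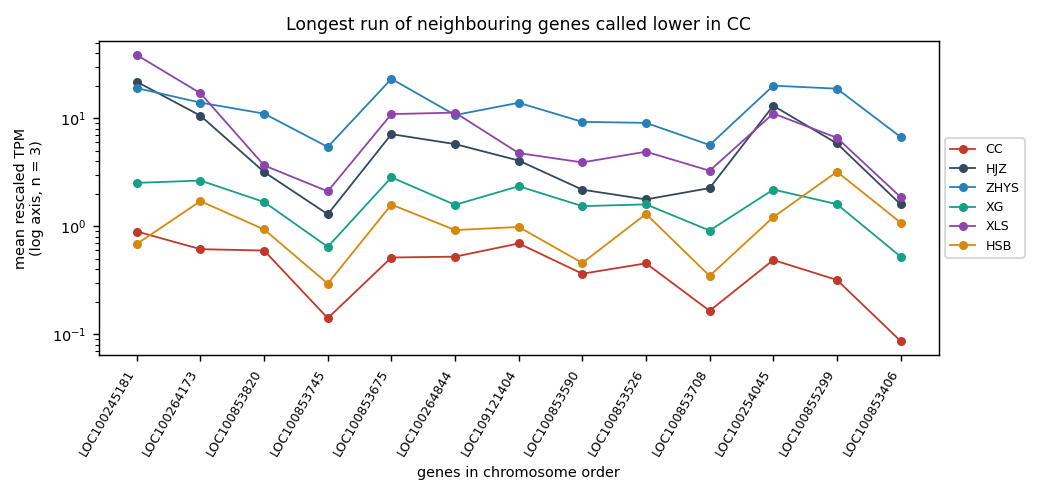
Mean rescaled TPM (log axis, n = 3 libraries a zone) of the 13 neighbouring genes of the longest run, in chromosome order, for CC and the 5 other zones. CC lies between 0.09 and 0.89 and is the lowest zone at every gene but the first, where HSB is lower.

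Among 22 defence and pathogenesis-related genes, 1 was higher and 2 were lower in CC, with a list median of 0.15. CHI4C, a class IV chitinase, had the largest fall of all called genes with a name. Its values were 11.8, 16.6 and 13 rescaled TPM in CC, against 23.8 to 150 with a median of 79.3 in the other zones. It was called against each of the 5 zones, and the difference was -2.31 ± 0.16 (limma adjusted p = 8.0e-08). PR10.7, a pathogenesis-related protein of class 10, went the other way, with 34.8, 25.3 and 25.3 in CC and 2.68 to 19.3 elsewhere, without overlap (1.85 ± 0.20, adjusted p = 4.5e-06).

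The gene of a polygalacturonase-inhibiting protein, pgip (LOC100232865), had 7.86, 8.82 and 7.31 rescaled TPM in CC and 8.81 to 153 elsewhere, with 1 library at the edge of overlap. Its difference of -1.53 ± 0.56 (limma adjusted p = 0.037) was lost when any of 7 libraries was left out, namely the 3 of CC, replicates 1 and 2 of XG and replicates 1 and 2 of HSB (adjusted p = 0.050 to 0.11). It was also lost without the HSB zone (0.066) and on TPM as deposited (0.061). PR10.2, the most abundant gene of the list, averaged 2798 in CC and 2267 elsewhere and was not called. Of 7 MLO genes, a family known for powdery mildew susceptibility, 1 was lower. This was LOC100267554, listed as MLO3 or MLO6, with 3.48, 3.09 and 2.54 in CC and 3.25 to 45.4 elsewhere (-1.63 ± 0.15, adjusted p = 7.8e-07), its overlap coming from the lowest of the other libraries.

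Of 14 genes of gibberellin, abscisic acid and ethylene, 1 was higher and 1 lower in CC, with a list median of -0.13. GA3ox1 (LOC100265167), which makes active gibberellin, had 2.68, 2.37 and 8.72 rescaled TPM in CC and 0.00 to 2.55 with a median of 0.20 elsewhere. The spread within CC was wide and 1 XLS library overlapped, but it was called against every zone (1.86 ± 0.28, limma adjusted p = 7.7e-05). NCED1, the dioxygenase of abscisic acid synthesis, had 15.8, 14.2 and 11.8 in CC and 8.48 to 69.7 with a median of 36.1 elsewhere. HJZ averaged 10.04 and HSB 58.3, and the difference of -1.07 ± 0.16 (adjusted p = 8.2e-05) was -0.96 without CC replicate 3, -0.84 without HSB and -0.92 without XLS, below the threshold in each. On TPM as deposited it was -0.84 and was not called.

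METK2, the most abundant S-adenosylmethionine synthetase, averaged 381 in CC and 541 elsewhere and was not called. Of 9 carotenoid genes NCED1 alone was called. CCD1, a carotenoid cleavage dioxygenase, had its CC libraries above all others, at a mean of 179 in CC and 100 elsewhere (0.85, adjusted p = 8.7e-06), under the fold threshold, which it passed on TPM as deposited (1.10).

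Ripening-induced proteins, named for transcripts that accumulate in ripening grape berries, moved in both directions. Of 11 tested, 2 were higher and 2 lower, with a list median of 0.54. GRIP61 had 1640, 1654 and 1644 rescaled TPM in CC and 0.096 to 4923 with a median of 469 elsewhere. MRIP1 had 5034, 4943 and 6095 in CC and 17.3 to 9764 with a median of 1710 elsewhere. Both overlapped widely, both were lowest in HSB, HJZ and ZHYS averaged more than CC in GRIP61 and HJZ did in MRIP1. The differences of 2.62 ± 0.17 and 2.32 ± 0.16 (limma adjusted p = 3.8e-08 and 5.7e-08) were 0.68 and 0.92 without HSB.

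GRIP22 had 2.86, 2.63 and 2.5 rescaled TPM in CC and 0.34 to 103 with a median of 5.51 elsewhere. HJZ averaged 75.8 and HSB 67.0, whereas ZHYS averaged 1.88, and the difference was -1.90 ± 0.27 (limma adjusted p = 4.5e-05). GRIP4 averaged 39.8 in CC and 129.9 elsewhere. Its difference of -1.01 ± 0.21 lost the call when any of 8 libraries was left out (-0.99 to -0.87), namely replicates 1 and 3 of HJZ, replicate 3 of ZHYS, replicates 1 and 3 of CC, replicate 1 of XG and replicates 1 and 2 of HSB, and it was -0.59 without the XG zone, -0.71 without HSB and -0.78 without HJZ. It was also lost on TPM as deposited (-0.76), with factors of the stage (-0.97) and after quantile normalization (-0.94).

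Of 18 MADS-box and flowering genes, 2 were higher in CC and 0 lower, with a list median of 0.19. AP1, a MADS-box factor of the APETALA1 kind, had 11.5, 9.20 and 16.9 rescaled TPM in CC and 0.00 to 31.1 with a median of 0.19 elsewhere. The groups overlapped through XLS, whose mean was 18.6, while ZHYS averaged 4.77, XG 0.20, HSB 0.13 and HJZ 0.11, and the difference was 2.28 ± 0.25 (limma adjusted p = 3.6e-06). TM6, a MADS-box factor related to APETALA3, had 270.0, 264.5 and 230.4 in CC and 69.8 to 204 elsewhere, without overlap. Its difference of 1.01 ± 0.18 (adjusted p = 0.00028) sat at the threshold, and leaving out any of 9 libraries took it to between 0.97 and 0.999, namely replicates 2 and 3 of HJZ, 1 and 2 of ZHYS, 1 and 2 of CC, 3 of XG, 2 of XLS and 3 of HSB. Without the HJZ zone it was 0.88, and without XLS 0.96. MADS5, the AGAMOUS-LIKE11 gene of seed development, averaged 1075 in CC and 978 elsewhere and was not called.

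In calcium signalling, 2 of 26 CBL sensors and CIPK kinases were higher and 1 was lower in CC, with a list median of 0.27. CIPK03 had 766, 718 and 697 rescaled TPM in CC and 229 to 521 with a median of 367 elsewhere, without overlap (1.08 ± 0.11, limma adjusted p = 1.5e-06). The difference was 0.98 without HJZ and 0.99 without ZHYS. CIPK02 had 73.2, 68.0 and 79.0 in CC and 38 to 418 elsewhere, with HJZ below CC (-1.23 ± 0.12, adjusted p = 1.3e-06, or -0.96 without HSB, -0.998 without ZHYS and -0.98 on TPM as deposited). CBL01 had 39.4, 42.2 and 41.8 in CC and 0.00 to 56.6 elsewhere. It was listed at 0 in all 3 HSB libraries, and its difference of 1.17 ± 0.08 was 0.12 without HSB.

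SIRK, an inward potassium channel first described in grapevine guard cells, was the only called gene of 6 in ion transport. It had 1.26, 1.48 and 1.21 rescaled TPM in CC and 1.24 to 24.6 with a median of 8.81 elsewhere, with HJZ next and HSB highest (-1.88 ± 0.14, limma adjusted p = 1.5e-07). CYP716A17, a cytochrome P450 of triterpenoid synthesis, had 5.32, 1.93 and 4.33 in CC. It was at a similar level in XLS, up to 7.03, and at or near 0 in HJZ, XG and HSB (1.53 ± 0.20, adjusted p = 1.9e-05). SERAT (LOC100246391), a serine acetyltransferase of cysteine synthesis, had 23.0, 24.0 and 23.1 in CC and 25.7 to 129 elsewhere, without overlap (-1.26 ± 0.10, adjusted p = 1.6e-07, or -0.99 without ZHYS).

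Several lists held no called gene. These were sugar transport and cleavage (25 tested, median -0.17), aquaporins (11, -0.05), germin-like proteins (7, -0.04), malic acid and vacuolar proton pumping (4, -0.05), oxylipins (6, -0.06) and water deficit, cold and heat (8, 0.02). None of their 61 genes passed the fold threshold, and by limma's unadjusted p below 0.05 alone 15 were higher and 21 lower (24.6% and 34.4%, against 22.0% and 28.4% over all genes). The sugar genes summed to 631 to 670 in CC and 682 to 1039 in the other zones. SWEET15 (LOC100243643), a sugar exporter and their most abundant member, averaged 216 in CC and 275 elsewhere, and the sucrose transporter VVSUC27 averaged 117 in CC and 212 elsewhere, its CC libraries below all others (-0.77, limma adjusted p = 2e-04). Among the aquaporins PIP1;3 averaged 1407 in CC and 1046 elsewhere, with CC above all others (0.43, adjusted p = 3.9e-05), and PIP1;2 averaged 371 in CC and 735 elsewhere, with CC below all others (-0.95, adjusted p = 1e-06). All 3 stayed under the fold threshold. The dehydrin DHN1 (LOC100232959) averaged 1350 in CC and 1875 elsewhere. Over all lists together, 232 genes were tested, 17 were higher and 11 lower, beside 443 and 657 of all 24046 genes tested. The lists were chosen with earlier results of these data known.

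**Figure D4:**
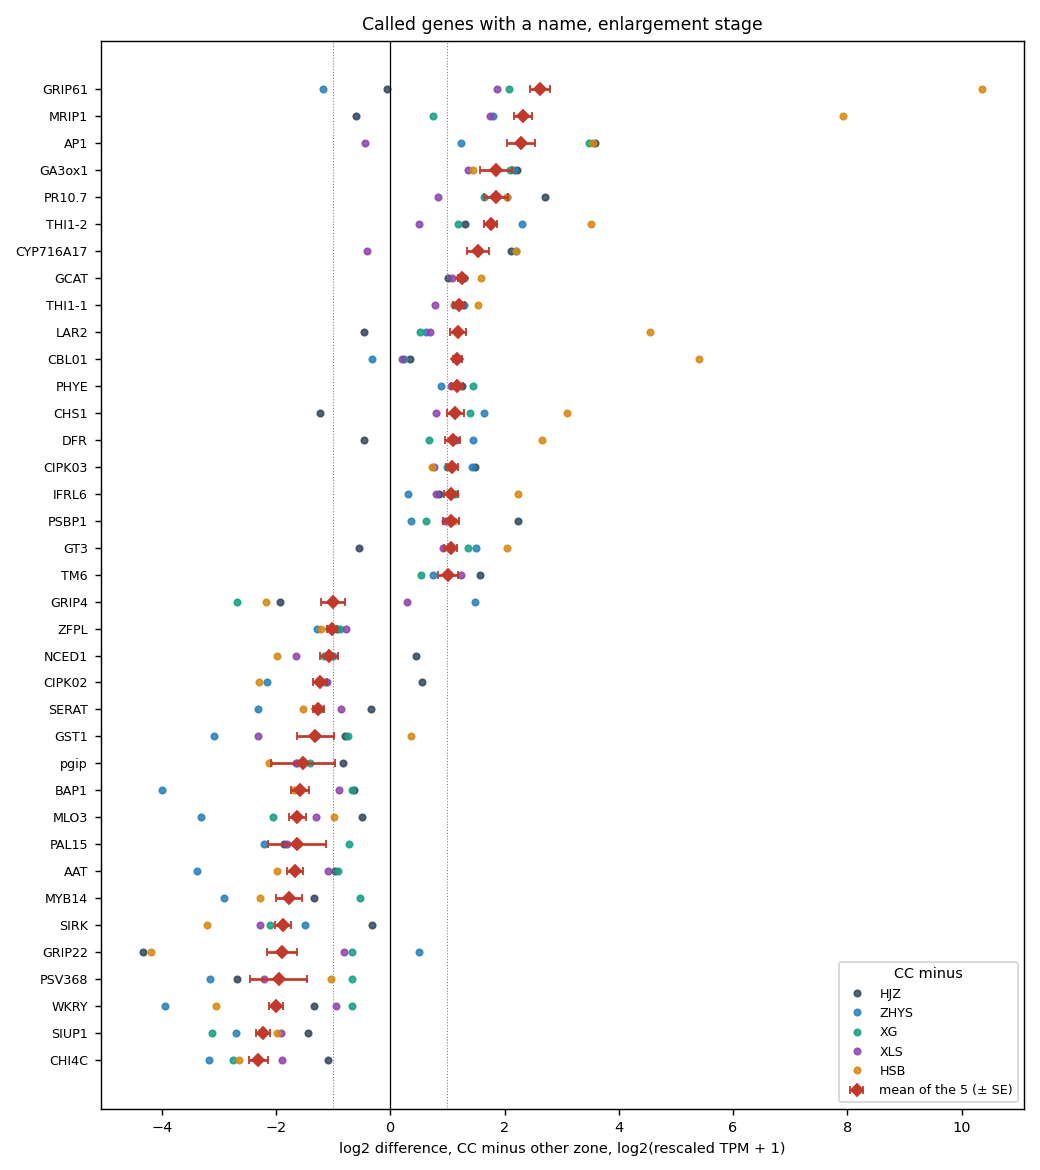
The 37 called genes described by name, with the log2 difference of CC minus the mean of the 5 other zones (red diamonds, ± SE of the fit) and CC minus each single zone (coloured points). Genes in which all points lie on 1 side, such as GCAT and CHI4C, contrast with GRIP61, MRIP1, CBL01 and LAR2, in which the HSB point stands far to the right.

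Of the 1100 called genes 37 are described by name, 19 higher and 18 lower, and those not yet given were SIUP1 (-2.23), WKRY (-1.99), AAT (LOC100233116, -1.67), BAP1 (LOC100248930, -1.58), GST1 (-1.31), ZFPL (-1.02) and GT3 (1.05). SIUP1 was below all other libraries and called against each zone, with 15.7, 13.4 and 11.1 in CC and 32.2 to 138 rescaled TPM elsewhere. ZFPL lost its call without HJZ replicate 2 (-0.995) or CC replicate 1 (-0.91), without the zone ZHYS (-0.95) or HSB (-0.97), on TPM as deposited (-0.79), with factors of the stage (-0.98) and after quantile normalization (-0.96). GT3 fell under the threshold without HSB (0.81), without ZHYS (0.94) and without XG (0.98). Without ZHYS, GST1 was at -0.87 and BAP1 at -0.98. The largest differences were in genes without a name, singled out after their values were seen. LOC100252657 had 41.7, 20.3 and 32 in CC and 0.55 to 9.15 elsewhere (3.22 ± 0.34). LOC104881234 had 91.4, 71.1 and 54.6 in CC and 1.51 to 19.4 elsewhere (3.04 ± 0.18), and both were called against every zone. On the lower side, LOC100256795 had 0.00, 0.35 and 0.24 in CC and 1.13 to 294 elsewhere (-3.72 ± 0.85). LOC100254685 had 0.94, 0.78 and 0.51 in CC and 3.58 to 49.3 elsewhere (-3.63 ± 0.15). LOC100253072 had 1.55, 1.58 and 1.63 in CC and 5.77 to 86.1 elsewhere (-3.62 ± 0.14). In all 3 the CC libraries lay below the 15 others.

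The most abundant called genes had no name apart from MRIP1. LOC100243519 had 10536, 8236 and 8320 rescaled TPM in CC and 1612 to 10743 elsewhere, where HSB alone reached the CC level (1.27 ± 0.19, limma adjusted p = 7.7e-05, or 0.75 after quantile normalization). LOC100253748 had 4313, 4060 and 4952 in CC and 362 to 6818 elsewhere (1.08 ± 0.14, or 0.997 without CC replicate 3 and 0.47 without HSB). LOC100853570 had a positive log2 difference of 2.33 ± 0.32 although its mean was 4019 in CC and 4667 in the other zones. Its HSB libraries averaged 5.51 and its HJZ libraries 16130 rescaled TPM, and without HSB the difference was 0.59.

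At color transition, in libraries that the enlargement contrast did not use, CC differed from the mean of the other zones in 459 higher (1.92%) and 259 lower (1.09%) of 23864 genes, 718 (3.01%) together. At maturity 211 (0.898%) were higher and 149 (0.634%) lower of 23486, 360 (1.53%) together. On TPM as deposited the color transition calls were 190 higher and 677 lower, with a median over all genes of -0.22, and the maturity calls 94 higher and 283 lower, with a median of -0.10.

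Of the enlargement calls, most were not called later, but the shares called were above those over all genes in both directions at color transition. Of the 443 genes higher in CC at enlargement, 34 were higher at color transition (7.67%, against 1.92% of all genes) and 22 lower (4.97%, against 1.09%), which were 7.41% and 8.49% of the color transition calls. Of the 657 lower genes, 74 were lower at color transition (11.3%, against 1.09%) and 45 higher (6.85%, against 1.92%), which were 28.6% and 9.8% of those calls. At maturity, 22 of the 434 higher genes still tested were higher (5.07%, against 0.898% of all genes) and 2 lower (0.461%, against 0.634%). Of the 642 lower genes still tested, 35 were lower (5.45%, against 0.634%) and 18 higher (2.8%, against 0.898%). Calls in the same direction at all 3 stages were met by 5 higher and 2 lower genes, none with a name. Among them LOC104880613 differed by 2.68 at enlargement, 2.71 at color transition and 2.14 at maturity, and LOC109122826 by -1.32, -1.05 and -1.51.

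THI1-2, PSBP1, PHYE and GCAT were not called later. At color transition THI1-2 differed by 0.24, PSBP1 by -0.20, PHYE by -0.22 and GCAT by 0.30, and at maturity by -0.12, 0.23, -0.03 and 0.62. CHI4C differed by 0.07 at color transition and -0.62 at maturity. Of the 37 genes described by name, CHS1 alone was called higher at both enlargement (1.14) and color transition (1.05), and PAL15 alone was called lower at both enlargement (-1.64) and maturity (-1.52). MYB14 was called at -1.77 at enlargement and at 1.56 at color transition, and GRIP22, LAR2, PAL15, PR10.7 and AAT likewise changed sign between those stages. The color transition values of single genes were not refitted without HSB or any other zone.

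**Figure D5:**
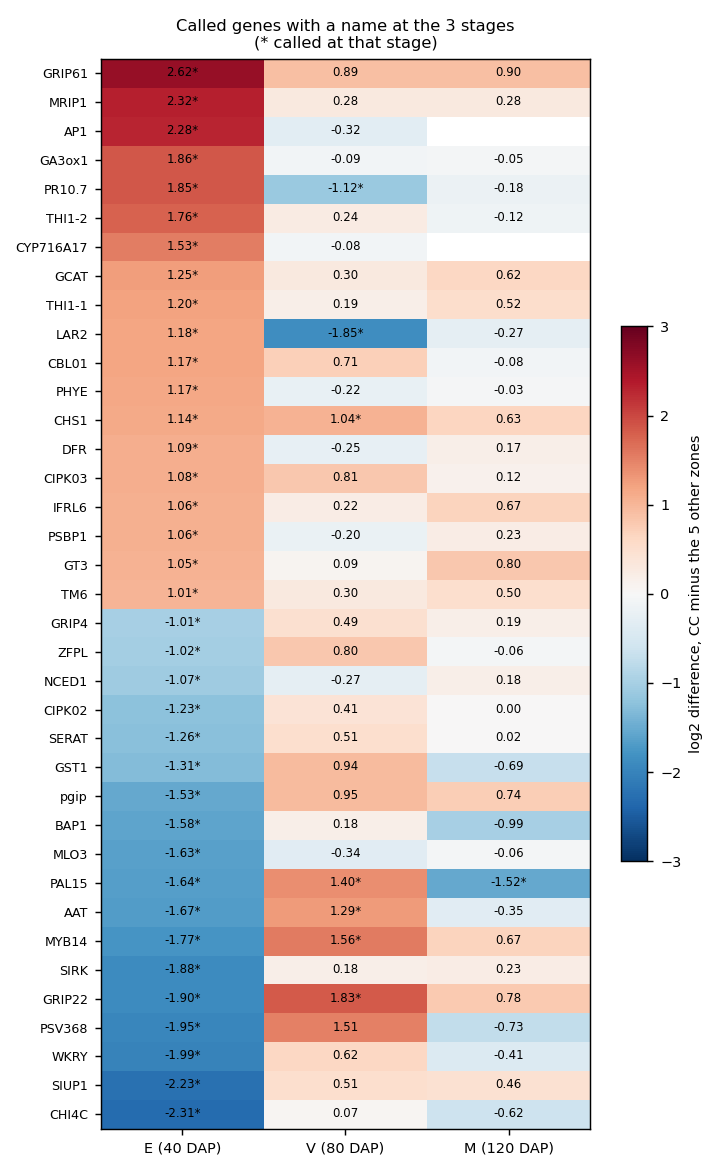
Log2 difference of CC minus the mean of the 5 other zones at enlargement (E), color transition (V) and maturity (M) for the 37 called genes described by name, each stage fitted on its own 18 libraries. An asterisk marks a call at that stage, and a blank cell marks a gene at 0 in all 18 libraries of the stage. MYB14 stands at -1.77 at E and 1.56 at V, and LAR2 at 1.18 at E and -1.85 at V.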

How the data were processed

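TPM values were used as the authors deposited them, with 2 decimals. The authors aligned clean reads to the grapevine genome with HISAT2, counted fragments per gene with featureCounts and converted the counts to TPM, and the versions of these tools are not given in the sources used here. For the reference the paper's methods link to a numbered Ensembl Plants release, whereas the deposited table names genes by NCBI gene numbers. Each of the 54 libraries was divided by a median-of-ratios factor from the 16546 genes above 0 in all of them. Group means of log2(rescaled TPM + 1) over the 18 libraries of a stage were fitted with limma 3.58.1 (R 4.3.3) with a variance trend, and genes at 0 in all 18 were left out. The fit was tested on simulated data, where 100 of 100 genes with a log2 change of 1.5 were called. With a change of 2 it called 99 of 100, and false calls were 0. The simulated zones were otherwise alike and the changed genes were not weakly expressed. The simulation therefore does not bear on differences among the other zones or on weak genes.

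Of 25133 gene IDs 23256 were found in the RefSeq gene table of ASM3070453v1, which was used for names and gene order, and 284 had a symbol other than a number. The table holds no product names, so the lists planned by product phrases matched almost no gene, and lists of symbols took their place. The named genes were, by rule, those with a name and the largest differences among called genes whose CC libraries all lay outside the others at 10 or more rescaled TPM, the 3 called members of largest difference and the most abundant member of each list, and the 4 most abundant called genes in CC and in the other zones. The other called genes with a name, the extremes without one and counts by unadjusted p alone were added after their values were seen. 1 called gene with a name is not reported here. Members and lists were chosen with earlier results of these data known. The alternatives tried were other scalings, a pseudocount of 0.1, a filter at a mean of 1 rescaled TPM, a replicate block, a fit over all libraries, unadjusted p, and leaving out each library or zone.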

Additional observations from a re-analysis of the deposited data

Results flagged for a closer look

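For 7 of the genes described, CC was called in opposite directions at enlargement and color transition. The difference between the stages was then fitted in 1 fit over all 54 libraries (limma, adjusted over all genes). The 7 were picked by opposite calls in the same libraries and by passing this fit, so passing was all but fixed in advance. The p-values below are therefore no separate support for the change of direction. The enlargement minus color transition difference was -3.73 for GRIP22 (adjusted p = 4.3e-11), -3.33 for MYB14 (4.4e-12), -3.04 for PAL15 (LOC100245997, 7.6e-05), -2.96 for AAT (LOC100233116, 1.8e-15) and -6.14 for LOC100256795 (4.8e-07). These 5 were lower in CC at enlargement and higher at color transition. It was 3.04 for LAR2 (2.9e-07) and 2.97 for PR10.7 (3.3e-08), higher in CC at enlargement and lower at color transition. LOC100256795 has no name and was singled out after its values were seen. Of all 1100 genes called at enlargement, 67 had opposite calls at color transition and a difference between the stages past an adjusted p of 0.05, and 20 at maturity. At color transition LAR2 had a difference of -1.85 and PR10.7 of -1.12. Without HSB among the other zones, 329 of the 459 higher and 90 of the 259 lower color transition calls remained. Whether these 7 genes keep their color transition call without HSB was not tested.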

How the results depend on the processing

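On TPM as deposited, 792 genes were higher in CC at enlargement (450 lower), and 445 called genes lay above and 161 below all 15 other libraries. Against single zones CC then had 3198 higher and 241 lower genes for HJZ, 2054 and 732 for ZHYS, 1002 and 332 for XG, and 3029 lower for HSB. The later stages then had 190 higher and 677 lower (V) and 94 and 283 (M). The factors themselves set these shifts, since nothing else was changed. A pseudocount of 0.1, which widens the differences of weakly expressed genes, gave 944 higher and 1387 lower genes, 371 of the higher ones above all other libraries. Against single zones it gave 2053 and 1590 (HJZ), 1067 and 2362 (ZHYS), 1234 and 999 (XG), 487 and 1447 (XLS), and 2256 and 3459 (HSB), at V 734 and 975, and at M 454 and 527. Genes lower at V numbered 393 without ZHYS and 119 without HSB, and the cause was not tested.

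Of 50 called genes followed through the alternatives, 27 kept their call under every alternative and none changed direction. The 50 hold the 37 genes described by name and further genes without a name. Most of those without a name were picked for their large differences, and some are not described here. HSB was the zone whose removal ended the most of these calls (15 of 50), and removing single libraries ended 8. Leaving out 1 library gave 395 to 464 higher and 619 to 681 lower genes at enlargement. Uncalled values near 0 changed sign. VVME2, a malic enzyme, was at -0.03 and became 0.22 on TPM as deposited, 0.004 with factors of the stage, 0.036 after quantile normalization, 0.051 without HJZ and 0.054 without ZHYS, and ranged from -0.057 to 0.004 over single libraries. DHN1 (LOC100232959), at -0.05, became 0.21 on TPM as deposited, 0.14 after quantile normalization, 0.37 without HJZ and 0.17 without XG, and ranged from -0.145 to 0.063 over single libraries. CCOAOMT (LOC100233087) was at -0.44 and became 0.14 without HSB.

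Same-numbered libraries of different zones deviated together in 14 of 45 pairs (correlation above 0.1, from -0.29 to 0.33). Their median correlation was 0.08, against -0.03 for differently numbered libraries. The main fit did not pair the samples by number. A replicate block gave 450 higher and 662 lower genes at enlargement. Low levels limit the precision, since depth is unknown, and most called genes have no name here.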
